A study of Homo sapiens with 6 samples.

Results

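A set of 10 genes of the unfolded protein response (UPR) and the integrated stress response was followed in prostate cancer cells given inhibitors of HSP70. They are the stress sensors EIF2AK3 (PERK), EIF2AK1 (HRI), EIF2AK4 (GCN2) and ERN1 (IRE1), the transcription factors ATF4, ATF5, DDIT3 (CHOP) and XBP1, and ATF6 and ATF6B, which are sensor and transcription factor in a single protein. The genes were listed by name, with no threshold on their values, and are 10 of the 60658 Ensembl identifiers listed in each library. RNA was sequenced from 2 human castration-resistant prostate carcinoma lines, C4-2B MDVR, an enzalutamide-resistant derivative of C4-2B, and CWR22Rv1. Each line received DMSO vehicle, 10 µM apoptozole (APO) or 10 µM VER155008 (VER) for 48 h. The maintenance medium of C4-2B MDVR cells held 20 µM enzalutamide and that of CWR22Rv1 cells held none, so line and medium cannot be told apart, and whether enzalutamide was present during the 48 h is not stated. Each of the 6 conditions is 1 library, so differences between libraries rest on single cultures, without replicates or p-values.

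The endoplasmic reticulum (ER) folds secreted and membrane proteins, and 3 sensors in its membrane, PERK, IRE1 and ATF6, report unfolded protein in its lumen. PERK and the other eIF2α kinases, HRI, GCN2 and PKR (EIF2AK2), phosphorylate the translation factor eIF2α, which lowers protein synthesis while ATF4, ATF5 and CHOP are still translated from mRNAs with upstream reading frames. IRE1 removes a short intron from XBP1 mRNA, so that the active factor is made, and ATF6 travels to the Golgi, where the proteases encoded by MBTPS1 and MBTPS2 release its transcription factor domain. The ER chaperone BiP (HSPA5) is itself a member of the HSP70 family and holds the sensors inactive. These steps act on proteins or on splicing, and a gene-level mRNA value does not measure them. In prostate cells, a secretory epithelium, the pathway serves the folding load of secretion.

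Values are FPKM, the fragments of a gene divided by its length and by the depth of the library, so that levels of different genes are compared per length. A fold change is a difference of log2(FPKM + 0.1), and a gene was counted as higher or lower when it differed by more than 1.2-fold (0.263 on the log2 scale). Relative depth, read from the steps of low FPKM values with the C4-2B MDVR DMSO library as 1, lay between 1.15 and 1.64 in the other 5 libraries. All 10 genes passed the filter of 0.1 FPKM in both lines, and their lowest value was 4.07 FPKM. The CWR22Rv1 APO library stood apart in its mitochondrial share of FPKM, 10.4% against 25.7% in both other CWR22Rv1 libraries, and the C4-2B MDVR libraries held 14.8% to 16.4%. The part of this difference in the CWR22Rv1 APO results was examined by rescaling each library to the same sum outside the mitochondrial chromosome, given where it moves a call or a value of interest. All 9 prostate luminal markers examined were above 1 FPKM in every library, with sums of 922 to 1422 FPKM, while 9 markers of other cell types summed to 5.51 to 14.8 FPKM, with PECAM1, KRT5 and TP63 listed at 0 throughout. COL1A1 was the highest of the markers of other cell types in every library, at 3.32 to 10.8 FPKM. CD68 reached 3.68 FPKM and DCN 1.70 FPKM. The luminal markers moved with the inhibitors, 6, 6, 5 and 5 of the 9 being lower and 2, 0, 2 and 2 higher with C4-2B MDVR APO, C4-2B MDVR VER, CWR22Rv1 APO and CWR22Rv1 VER, with median log2 fold changes of -1.57, -0.53, -0.64 and -0.31. Among all genes compared, 35.4%, 34.9%, 39.2% and 32.3% were lower and 37.7%, 35.6%, 35.6% and 32.1% higher in the same order. KLK2, an androgen-regulated kallikrein, measured 229, 15.9 and 46.5 FPKM in the C4-2B MDVR line and 83.4, 7.91 and 52.0 FPKM in the CWR22Rv1 line (DMSO, APO, VER). The part of these markers in the results was not tested. In these bulk samples, fewer cells of a type and less RNA per cell cannot be told apart.

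The promoters were searched for the elements that UPR factors are known to bind, since the 10 genes include both factors and their targets. RefSeq promoters (GRCh38.p14, 250 bases before to 50 after the start) were found for 9 of the 10 genes, 14 promoters in all, and EIF2AK1 had no entry. The ER stress response element (ERSE), known as a site of ATF6 with NF-Y, was searched on both strands as CCAAT, 9 bases of any kind and CCACG. Of all 35116 promoters, 27 (0.0769%) held it. XBP1 was the gene of the 10 with a match, from base -52 to base -34 before its start, and 5 of 12 ATF6 targets listed from general knowledge held it too (CALR, CRELD2, HSP90B1, HSPA5 and PDIA6). DDIT3 matched when the last base of the element was dropped, a form chosen after the sequence was seen, which 111 promoters (0.316%) hold, among them the full ERSE matches. No match was found in the promoters of the 10 genes for ERSE-II (ATTGG, 1 base, CCACG, in 0.0541% of promoters), the UPRE core (TGACGTG, 1.97%) or the C/EBP-ATF element (TGATG, 1 base, AA, 3.62%), also on both strands, where CCACG is shared by both ERSE forms. Stretches free of annotated exons just upstream of a RefSeq start are shown for XBP1 (chr22:28800598-28800682, minus strand), DDIT3 (chr12:57520518-57520709, minus strand) and ATF6 (chr1:161766228-161766293, plus strand), the last as a gene whose profile over the libraries resembled that of XBP1 without a match. Capitals mark the letters of the ERSE, complete in XBP1 and lacking the last base in DDIT3, whose stretch lies within the GENCODE gene because longer transcripts start farther upstream.
XBP1: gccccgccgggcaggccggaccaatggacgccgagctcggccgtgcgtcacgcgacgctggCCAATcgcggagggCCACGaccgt
DDIT3: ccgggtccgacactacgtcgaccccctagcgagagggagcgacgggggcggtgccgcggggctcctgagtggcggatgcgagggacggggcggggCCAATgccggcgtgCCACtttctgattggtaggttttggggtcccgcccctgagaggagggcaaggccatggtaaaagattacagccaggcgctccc
ATF6: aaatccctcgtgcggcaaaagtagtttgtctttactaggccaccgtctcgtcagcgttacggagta
A match describes the letters of the window and shows neither binding nor its absence.

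With APO or VER, most of the 10 genes were higher than with DMSO, and each of the 3 arms held genes that were. In C4-2B MDVR cells with APO 7 of the 10 were higher and 1 was lower, where 37.7% of all 20122 genes compared were higher and 35.4% lower. With VER 8 were higher and 1 lower, against 35.6% and 34.9% of all genes. In CWR22Rv1 cells with APO 7 were higher and 1 lower, against 35.6% and 39.2% of 21608 genes. With VER 8 were higher and 0 lower, against 32.1% and 32.3% of all genes. The median of the 10 genes was 1.17 (C4-2B MDVR APO), 1.13 (C4-2B MDVR VER), 1.06 (CWR22Rv1 APO) and 0.64 (CWR22Rv1 VER) on the log2 scale, beside medians between -0.02 and 0.02 over all genes above 1 FPKM. The APO and VER contrasts of a line share its DMSO library, so an error in that library moves both. DDIT3, ATF4, XBP1, ERN1, ATF6 and EIF2AK3 were higher in each contrast, EIF2AK1 stayed within 1.2-fold in each, and ATF5, EIF2AK4 and ATF6B varied with line and inhibitor.

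**Figure D1:**
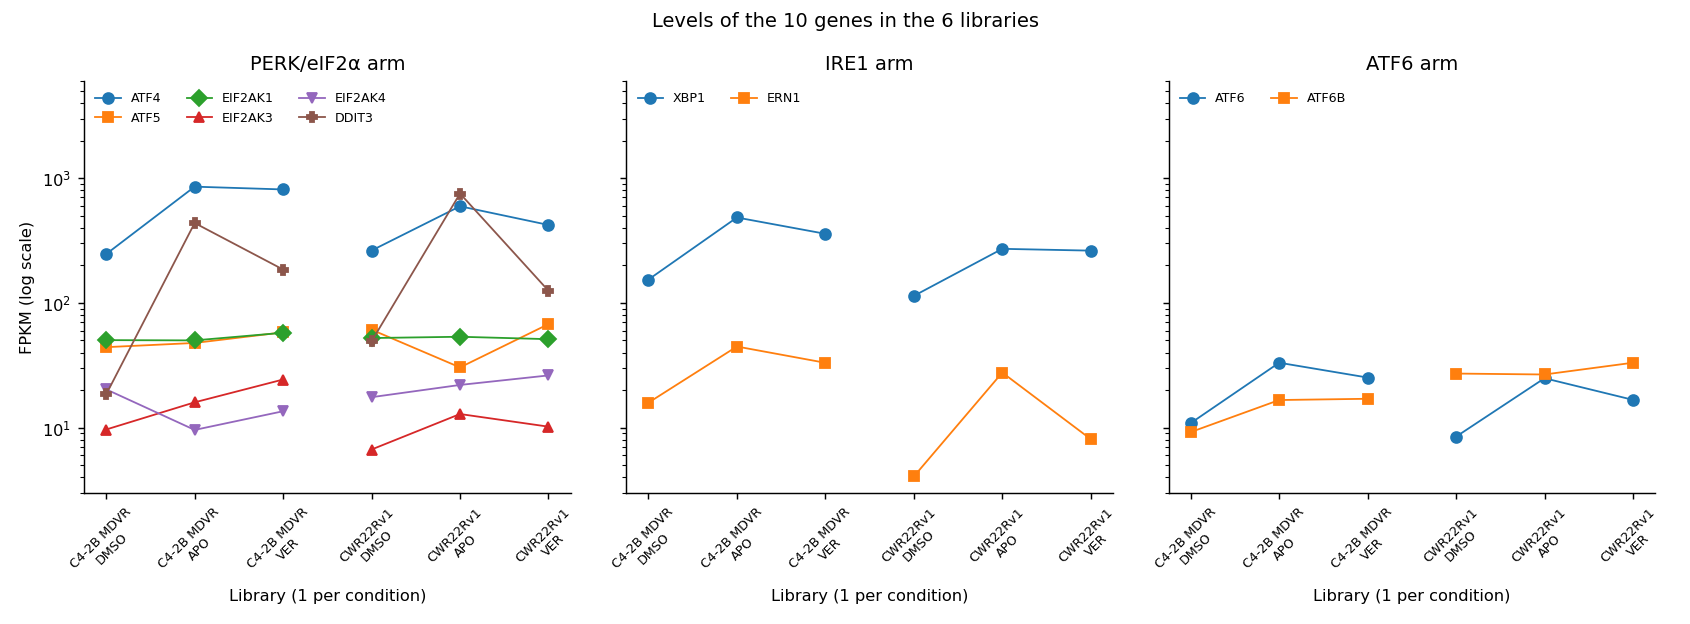
Levels of the 10 genes in FPKM (log axis) in the 6 libraries, 1 per condition, with a panel for each arm and lines joining the libraries of a cell line. DDIT3 moves over the widest range, from 18.5 to 753 FPKM, while EIF2AK1 stays between 50.1 and 57.6 FPKM.

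ATF4 and XBP1 were the most abundant of the 10 mRNAs in 5 of the 6 libraries, ATF4 first. The exception was the CWR22Rv1 APO library, where DDIT3 came first, 1.26-fold above ATF4. With DMSO the lowest gene was ATF6B in C4-2B MDVR cells (9.22 FPKM) and ERN1 in CWR22Rv1 cells (4.07 FPKM). Neighbours in the order often lay within 1.2-fold of each other. In the C4-2B MDVR DMSO library EIF2AK1 was 1.14-fold above ATF5, EIF2AK4 1.10-fold above DDIT3, and ATF6 1.13-fold above EIF2AK3. In the CWR22Rv1 APO library ATF5, ERN1, ATF6B, ATF6 and EIF2AK4 formed an unbroken run of such neighbours, from 30.4 down to 22.02 FPKM. XBP1 and DDIT3 were such neighbours in the C4-2B MDVR APO library, at 484 and 437 FPKM.

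Among the eIF2α kinases, PERK mRNA was higher with each inhibitor, HRI mRNA hardly differed and GCN2 mRNA moved in opposite directions in the lines. EIF2AK3 (PERK, ENSG00000172071, chromosome 2, 88556741 to 88627576), the kinase of the ER membrane, measured, in the order DMSO, APO and VER, 9.67, 16.0 and 24.3 FPKM in C4-2B MDVR cells and 6.69, 12.9 and 10.2 FPKM in CWR22Rv1 cells. Its log2 fold changes were, for APO and then VER, 0.72 and 1.32 in C4-2B MDVR cells, and 0.93 and 0.60 in CWR22Rv1 cells. VER gave the higher level in C4-2B MDVR cells and APO in CWR22Rv1 cells. EIF2AK1 (HRI, ENSG00000086232, chromosome 7, 6022244 to 6059230), which senses heme shortage and mitochondrial stress, measured 50.3, 50.1 and 57.6 FPKM and 52.3, 53.6 and 51.2 FPKM in the same order, with log2 fold changes between -0.03 and 0.20. EIF2AK4 (GCN2, ENSG00000128829, chromosome 15, 39934146 to 40035591), which senses uncharged tRNA, measured 20.3, 9.60 and 13.6 FPKM in C4-2B MDVR cells and 17.6, 22.02 and 26.2 FPKM in CWR22Rv1 cells. Its log2 fold changes were -1.07 and -0.58 in the first line and 0.32 and 0.58 in the second. The CWR22Rv1 value with APO was 0.17, within 1.2-fold, after rescaling to the same sum outside the mitochondrial chromosome. EIF2AK2 (PKR), the kinase that senses double-stranded RNA, is not among the 10 and measured between 6.81 and 10.5 FPKM in the 6 libraries.

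As shares of the summed FPKM of the 4 kinases, EIF2AK1 held the largest part in every library, 53.5% to 61.3%. In the order DMSO, APO and VER, EIF2AK3 held 10.9%, 18.5% and 23.8% in C4-2B MDVR cells and 7.83%, 13.2% and 10.6% in CWR22Rv1 cells. EIF2AK4 held 22.9%, 11.1% and 13.2% in C4-2B MDVR cells and 20.6%, 22.5% and 27.4% in CWR22Rv1 cells. The order of EIF2AK3 and EIF2AK4 thus turned in C4-2B MDVR cells, with ratios of 0.477, 1.66 and 1.80, and not in CWR22Rv1 cells, where they were 0.381, 0.585 and 0.388.

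**Figure D2:**
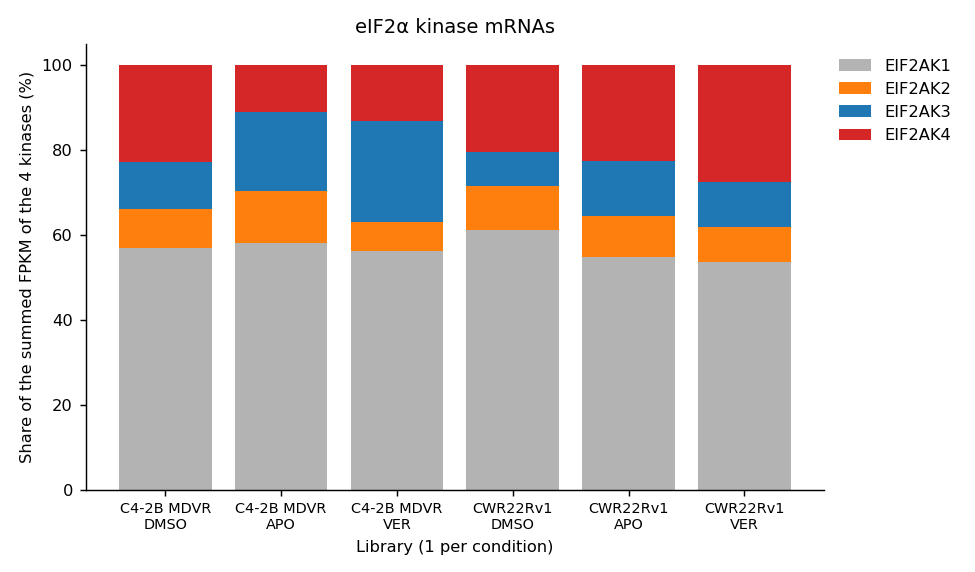
Share of the summed FPKM of the 4 eIF2α kinase genes (%), stacked for each of the 6 libraries. EIF2AK1 takes 53.5% to 61.3% throughout, and EIF2AK3 takes more than EIF2AK4 in the 2 C4-2B MDVR inhibitor libraries.

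Of the factors downstream of eIF2α, DDIT3 differed most. DDIT3 (CHOP, ENSG00000175197, chromosome 12, 57516588 to 57521737), a C/EBP-like factor linked to cell death in prolonged stress, measured, in the order DMSO, APO and VER, 18.5, 437 and 185 FPKM in C4-2B MDVR cells and 49.3, 753 and 125 FPKM in CWR22Rv1 cells. These are 23.6-fold and 10.0-fold differences in C4-2B MDVR cells, and 15.3-fold and 2.54-fold differences in CWR22Rv1 cells (log2 4.55, 3.32, 3.93 and 1.34). In both lines the APO library was the highest and the DMSO library the lowest. ATF4 (ENSG00000128272, chromosome 22, 39519695 to 39522685), the main factor of the integrated stress response, measured 246, 854 and 812 FPKM in C4-2B MDVR cells and 263, 595 and 422 FPKM in CWR22Rv1 cells, with log2 fold changes of 1.79, 1.72, 1.18 and 0.68. Both inhibitors gave nearly the same ATF4 level in C4-2B MDVR cells and an unequal one in CWR22Rv1 cells. ATF5 (ENSG00000169136, chromosome 19, 49928702 to 49933935), a relative of ATF4 tied to the mitochondrial stress response, measured 44.2, 47.8 and 58.1 FPKM in C4-2B MDVR cells and 61.0, 30.4 and 67.6 FPKM in CWR22Rv1 cells. Its log2 fold changes were 0.11, 0.39, -1.002 and 0.15, so ATF5 was the gene of the 10 that was lower in CWR22Rv1 cells with APO. The mitochondrial share of FPKM was low in that same library (10.4%), and after the rescaling for it the ATF5 value was -1.16.

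The ratio of DDIT3 to ATF4 within a library was 0.0751, 0.511 and 0.228 (DMSO, APO, VER) for C4-2B MDVR. In CWR22Rv1 cells it was 0.187, 1.26 and 0.297. The ratio was thus higher with both inhibitors than with DMSO and highest with APO in either line. The ratio of ATF5 to ATF4 went the other way, at 0.179, 0.0559 and 0.0716 in C4-2B MDVR cells and 0.232, 0.0511 and 0.160 in CWR22Rv1 cells. Ratios within a library do not depend on its scaling.

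**Figure D3:**
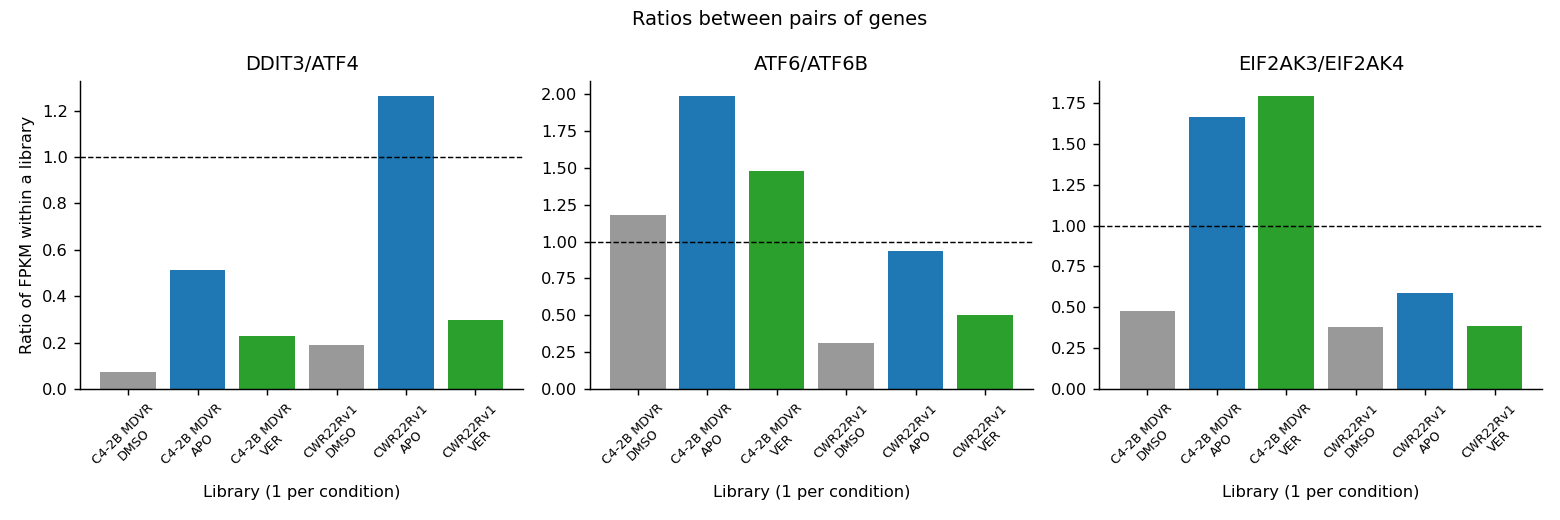
Ratios of FPKM between 3 pairs of genes within each of the 6 libraries (1 per condition), with a dashed line at equal levels. DDIT3 exceeds ATF4 in the CWR22Rv1 APO library (1.26), and ATF6 exceeds ATF6B in the 3 C4-2B MDVR libraries (1.18 to 1.99).

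Genes that share sequence or position with these factors were examined because the strand setting of the counting is not given in the sources used here. DDIT3 overlaps MARS on the opposite strand over 982 bases, and MARS measured 88.1, 187 and 164 FPKM in C4-2B MDVR cells and 102, 178 and 154 FPKM in CWR22Rv1 cells. DDIT3 also overlaps MBD6, which lay between 9.61 and 22.5 FPKM. ATF5 overlaps NUP62 on the opposite strand, which measured 43.0, 19.9 and 20.8 FPKM in C4-2B MDVR cells and 51.0, 32.5 and 43.2 FPKM in CWR22Rv1 cells, and EIF2AK1 overlaps AIMP2, between 86.0 and 166 FPKM. Reads from such partners cannot be told apart if strand was not used, and the part of this in the levels of DDIT3, ATF5 and EIF2AK1 was not tested. The processed pseudogenes of ATF4 and XBP1 were at most 0.385 FPKM (ATF4P3) and 0.118 FPKM (XBP1P1).

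Targets of ATF4 and CHOP were higher in all 4 contrasts. The list holds 18 genes written from general knowledge, and 18, 17, 17 and 16 of them were higher and 0 lower with C4-2B MDVR APO, C4-2B MDVR VER, CWR22Rv1 APO and CWR22Rv1 VER. The medians were 3.08, 2.19, 2.38 and 0.91 on the log2 scale, beside medians of all genes near 0. Among all genes compared, 37.7%, 35.6%, 35.6% and 32.1% were higher and 35.4%, 34.9%, 39.2% and 32.3% lower in the same order. These shares also stand beside the counts of the lists that follow. CHAC1, a glutathione-degrading enzyme, had log2 fold changes of 3.88, 4.17, 3.74 and 2.47, while ATF3, a stress-induced bZIP factor, was at 7.19, 170 and 58.1 FPKM (DMSO, APO, VER) in the C4-2B MDVR line and at 16.0, 232 and 26.7 FPKM in the CWR22Rv1 line. PPP1R15A (GADD34), the subunit that directs a phosphatase to eIF2α and so closes the loop, was at 2.20, 11.5 and 4.52 FPKM (DMSO, APO, VER) in the C4-2B MDVR line and at 10.1, 94.5 and 19.1 FPKM in the CWR22Rv1 line. The lowest mean changes over the 4 contrasts were those of VLDLR (1.45, 1.08, 0.28 and 0.46) and of the ER oxidase ERO1A (0.72, -0.03, -0.06 and -0.10). CTH, an enzyme of cysteine synthesis named here after its values were seen, was the other gene within 1.2-fold with VER in CWR22Rv1 cells, at -0.11.

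The regulators upstream of eIF2α showed no such common direction. Of 10 kinase regulators, eIF2 subunits and phosphatases, 6, 5, 5 and 4 were higher and 2, 3, 2 and 2 lower in the same order of contrasts, with medians of 0.31, 0.30, 0.25 and -0.06. PPP1R15A belongs to this list too, and DNAJC3 is also in the list of spliced XBP1 targets below. GCN1, the activator of GCN2, was lower in each contrast (-0.96, -0.86, -0.62 and -0.51), while IMPACT, a GCN2 inhibitor, was at 0.20, 0.85, 0.80 and 0.31. EIF2S1, which encodes eIF2α itself, was at -0.75, -1.05, 0.47 and -0.39, and EIF2AK2 at 0.34, -0.28, 0.09 and -0.13. The 7 genes of eIF2B, the exchange factor that phosphorylated eIF2 blocks, and of the other eIF2 subunits had medians of 0.02, 0.08, -0.21 and -0.01, with 2, 1, 3 and 1 higher and 2, 3, 2 and 3 lower. The CWR22Rv1 APO median of these genes was -0.36, beyond 1.2-fold, after rescaling outside the mitochondrial chromosome. EIF2S2 (0.84, 0.36, 1.12 and 0.26) and EIF2B2 (0.73, 0.10, 0.66 and 0.02) had the highest mean change of these. EIF2B5 (-0.57, -0.65, -0.63 and -0.42) and EIF2B4 (-0.16, -0.42, -0.21 and -0.33) had the lowest.

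Of the 9 bZIP relatives and partners of ATF4 and CHOP, 6, 4, 8 and 5 were higher and 2, 2, 1 and 2 lower, with medians of 1.07, 0.20, 1.36 and 0.33. CEBPB, which pairs with both, was at 2.46, 1.66, 2.81 and 0.88. ATF3, CEBPB and CEBPG are also in the list of ATF4 and CHOP targets, so the lists are not separate. BATF3 (-0.48, -1.62, -0.73 and -1.29) and CEBPD (-0.12, -0.69, 0.56 and -0.32) had the lowest mean change, and BATF3 lay between 0.224 and 4.91 FPKM.

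In the IRE1 arm both genes were higher in each contrast. ERN1 (IRE1, ENSG00000178607, chromosome 17, 64039142 to 64130819), the kinase and endoribonuclease that splices XBP1 mRNA, measured, in the order DMSO, APO and VER, 15.9, 44.7 and 33.1 FPKM in C4-2B MDVR cells. In CWR22Rv1 cells it measured 4.07, 27.7 and 8.10 FPKM. For ERN1 the log2 fold changes were 1.49, 1.06, 2.74 and 0.98, the largest that of the library with APO in CWR22Rv1 cells, where ERN1 started from the lowest level. XBP1 (ENSG00000100219, chromosome 22, 28794555 to 28800597), whose promoter holds the ERSE shown above, measured 154, 484 and 358 FPKM in C4-2B MDVR cells and 114, 271 and 262 FPKM in CWR22Rv1 cells. The XBP1 log2 fold changes of 1.65, 1.22, 1.25 and 1.204 lay close together. The FPKM of XBP1 sums spliced and unspliced mRNA, so splicing was not measured. The ratio of ERN1 to XBP1 was 0.103, 0.0925 and 0.0925 in C4-2B MDVR cells and 0.0357, 0.102 and 0.0309 in CWR22Rv1 cells, so the CWR22Rv1 APO library alone of its line came near the C4-2B MDVR ratio. ERN2, the IRE1 paralog of the gut, was listed at 0 in the C4-2B MDVR libraries and was at most 0.112 FPKM in CWR22Rv1 cells.

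Targets of spliced XBP1 were mostly higher, by less than those of ATF4. Of the 12 genes listed, 10, 11, 7 and 10 were higher and 0, 1, 0 and 0 lower with C4-2B MDVR APO, C4-2B MDVR VER, CWR22Rv1 APO and CWR22Rv1 VER. Among all genes compared, 37.7%, 35.6%, 35.6% and 32.1% were higher in the same order. The medians of the 12 genes were 0.73, 0.61, 0.39 and 0.52, and the CWR22Rv1 APO median was 0.24 after rescaling to the same sum outside the mitochondrial chromosome. DNAJB9 (ERdj4), a cochaperone of BiP, was at 12.9, 74.1 and 56.0 FPKM (DMSO, APO, VER) in the C4-2B MDVR line and at 12.3, 60.5 and 45.4 FPKM in the CWR22Rv1 line. EDEM2, which trims glycans of misfolded proteins, was at 1.41, 1.76, 0.60 and 0.89 on the log2 scale. SEC31A, of the vesicle coat (-0.02, 0.27, 0.15 and 0.35), and the cochaperone DNAJB11 (0.72, 0.45, -0.16 and 0.12) had the lowest mean change. SRP19, named here after its values were seen, was the gene lower with VER in C4-2B MDVR cells, at -0.35.

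The partners of IRE1 and its cleaved mRNAs were mixed. Of the genes for XBP1 mRNA ligation and IRE1 partners, 5 of 9, 5 of 9, 8 of 10 and 5 of 10 were higher and 1, 2, 1 and 3 lower. The gene compared in CWR22Rv1 cells alone was ERN2, at 0, 0.112 and 0.068 FPKM there (DMSO, APO, VER). ERN2 passed the filter through the APO library only, and it is counted as higher with both inhibitors. The median log2 fold changes of this list were 0.32, 0.38, 0.52 and 0.24. Both CWR22Rv1 medians include ERN2. Without ERN2 they are the values of SEC63 with APO (0.51) and of RTCB, of the ligase complex, with VER (0.03). SEC61A1, the channel subunit of the translocon, was at 0.93, 0.90, 0.69 and 0.89, and SEC63 at 0.91, 0.63, 0.51 and 0.46. TRAF2, the adaptor through which IRE1 reaches JNK signalling, was lower in each contrast (-0.94, -1.14, -0.99 and -0.57), and DDX1, of the ligase complex, was at -0.10, -0.39, 0.55 and -0.12. Of 6 mRNAs known to be cut by IRE1, 2, 2, 2 and 1 were higher and 3, 1, 4 and 2 lower, with medians of -0.16, 0.07, -0.73 and 0.10. These counts include SPARC (-0.03, 0.83, 1.76 and -0.63) and PDGFRB (-1.12, -0.12, -0.87 and -0.04), named after their values were seen. Both were low in every library, SPARC at most 0.842 FPKM and PDGFRB at most 0.341 FPKM. SCARA3, a scavenger receptor, was lower in each contrast (-1.73, -1.93, -2.26 and -0.89). BLOC1S1, the substrate most often used to read this activity, was at 0.67, 0.26, 0.47 and 0.54. HGSNAT, a lysosomal enzyme, was at 0.72, 1.43, -0.66 and 0.25, and COL6A1, a collagen chain, at -0.30, -0.26, -0.79 and 0.25. An mRNA level does not separate cleavage from transcription.

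In the ATF6 arm, ATF6 was higher in each contrast while ATF6B was higher in C4-2B MDVR cells and close to its DMSO level in CWR22Rv1 cells with APO. ATF6 (ENSG00000118217, chromosome 1, 161766294 to 161964070) measured, in the order DMSO, APO and VER, 10.9, 33.2 and 25.2 FPKM in C4-2B MDVR cells and 8.48, 24.9 and 16.7 FPKM in CWR22Rv1 cells. Its log2 fold changes were 1.60, 1.21, 1.54 and 0.97, with APO above VER in both lines. ATF6B (ENSG00000213676, chromosome 6, 32115264 to 32128253), a paralog that is a weaker activator, measured 9.22, 16.7 and 17.1 FPKM in C4-2B MDVR cells and 27.2, 26.7 and 33.2 FPKM in CWR22Rv1 cells. The changes of ATF6B were 0.85, 0.88, -0.02 and 0.29, and the last was 0.22, within 1.2-fold, under both rescalings to an equal sum. The ratio of ATF6 to ATF6B was 1.18, 1.99 and 1.48 in C4-2B MDVR cells and 0.312, 0.933 and 0.504 in CWR22Rv1 cells, so ATF6 lay above ATF6B in the first line and below it in the second, within 1.2-fold in the C4-2B MDVR DMSO and CWR22Rv1 APO libraries. ATF6B overlaps TNXB over 71 bases of the same strand, and TNXB was at most 1.79 FPKM.

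The genes that carry ATF6 to the Golgi and cut it there showed no common direction. Of these 10 genes, which include the NF-Y subunits, 1, 2, 4 and 3 were higher and 4, 2, 2 and 3 lower, with medians of -0.04, 0.04, 0.11 and -0.02. MBTPS1 (S1P) was at 0.24, 0.27, -0.22 and 0.17 and MBTPS2 (S2P) at 0.03, 0.14, -0.29 and 0.55. SAR1B, a coat GTPase (0.47, 0.50, 0.40 and 0.33), and NFYC (0.06, 0.16, 1.14 and 0.34) had the highest mean change. NFYB (-0.37, -0.28, 0.13 and -0.29) and the coat subunit SEC24A (-0.29, -0.14, 0.09 and -0.31) had the lowest among those averaging 1 FPKM or more.

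Targets of ATF6 separated the lines under APO. All 12 listed ER chaperones and degradation genes were higher with either inhibitor in C4-2B MDVR cells, with medians of 0.77 and 1.01. There 37.7% (APO) and 35.6% (VER) of all genes were higher. In CWR22Rv1 cells with APO 4 were higher and 7 lower, with a median of -0.87, against 35.6% and 39.2% of all genes. With VER 5 were higher and 1 lower, with a median of 0.20, against 32.1% and 32.3% of all genes. The part that was higher with APO in CWR22Rv1 cells is near the share of all genes. After rescaling outside the mitochondrial chromosome the counts with APO in CWR22Rv1 cells were also 4 and 7. HSPA5 (BiP), the main HSP70 chaperone of the ER, measured 278, 2035 and 863 FPKM in C4-2B MDVR cells and 437, 727 and 495 FPKM in CWR22Rv1 cells, log2 fold changes of 2.87, 1.63, 0.73 and 0.18. HERPUD1, of the ER degradation machinery, measured 58.2, 215 and 210 FPKM in C4-2B MDVR cells and 91.1, 182 and 172 FPKM in CWR22Rv1 cells. The other genes higher in CWR22Rv1 cells with APO were SEL1L (0.95) and HYOU1 (0.89), named after their values were seen. The disulfide isomerase PDIA4 was at 0.46, 0.71, -1.34 and -0.14 and the cochaperone SDF2L1 at 0.48, 0.35, -1.15 and -0.48. Of the 5 targets with an ERSE in the promoter, HSPA5 was higher in CWR22Rv1 cells with APO and CALR (-1.28), CRELD2 (-1.63), HSP90B1 (-1.07) and PDIA6 (-0.67) were lower, a grouping also made after the values were seen. In this same library XBP1 (1.25) and ATF6 (1.54) mRNA were higher. The APO and VER differences between the lines were not tested.

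**Figure D4:**
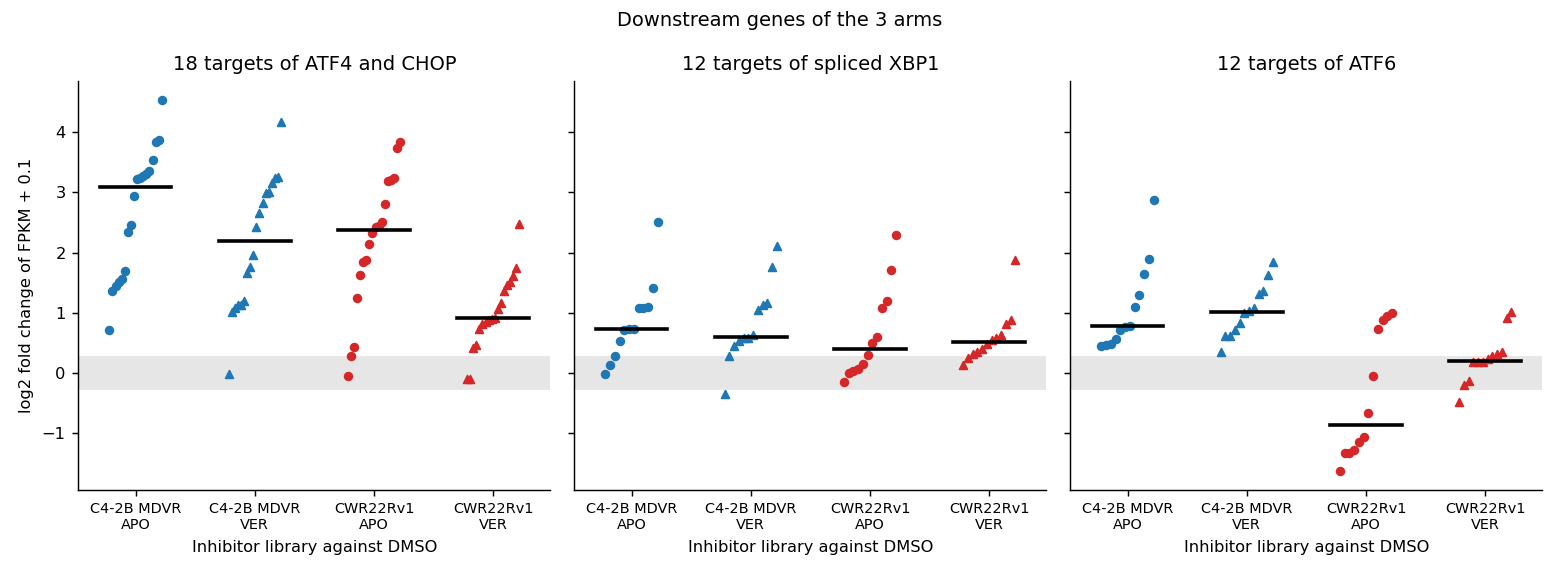
log2 fold changes of the 18 ATF4 and CHOP targets, the 12 targets of spliced XBP1 and the 12 targets of ATF6 in the 4 contrasts with DMSO, each point a gene in order of its value, bars the medians and grey the band within 1.2-fold. The ATF4 and CHOP targets have medians of 0.91 to 3.08, and the ATF6 targets have a median of -0.87 in CWR22Rv1 cells with APO.

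Of the 6 bZIP relatives of ATF6 listed, CREB3L3 was at 0 in every library. Of the other 5 genes, 1, 2, 2 and 4 were higher and 2, 2, 3 and 0 lower, with medians of -0.14, -0.13, -0.34 and 0.68. Both CWR22Rv1 medians are the values of CREB3L1, a low gene named here after its values were seen. CREB3L1 measured 0.853, 0.652 and 1.43 FPKM in CWR22Rv1 cells (DMSO, APO, VER) and 0.447, 0.0257 and 0.0362 FPKM in C4-2B MDVR cells. In C4-2B MDVR cells CREB3L1 passed the filter through the DMSO library only, and it is counted as lower with both inhibitors. Without CREB3L1 the middle values there are -0.14 and 0.02 with APO, and -0.13 and 0.32 with VER. CREB3, a Golgi and ER factor, was higher in each contrast (1.496, 1.60, 1.07 and 0.70), and CREB3L2 was at 0.02, 0.32, 0.91 and 0.83. CREB3L4, which is abundant in prostate, measured 121, 64.3 and 110 FPKM in C4-2B MDVR cells and 93.6, 50.7 and 123 FPKM in CWR22Rv1 cells, lowest with APO in both. CREBZF was at -0.14, -0.34, -0.71 and 0.08.

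Set side by side, the values within the PERK/eIF2α arm spread more widely than the medians of the 3 arms lay apart. The 6 genes of the PERK/eIF2α arm had medians of 0.41, 0.86, 0.63 and 0.59 with C4-2B MDVR APO, C4-2B MDVR VER, CWR22Rv1 APO and CWR22Rv1 VER. Those of the 2 IRE1 genes were 1.57, 1.14, 1.99 and 1.09, and those of the 2 ATF6 genes 1.22, 1.04, 0.76 and 0.63. The IRE1 median was the highest in each contrast, but within 1.2-fold of the ATF6 median with VER in C4-2B MDVR cells. Single values of the PERK/eIF2α arm ran from -1.07 (EIF2AK4) to 4.55 (DDIT3) with APO in C4-2B MDVR cells. Its median takes in EIF2AK1, EIF2AK4 and ATF5. ATF4, the middle value of EIF2AK3, ATF4 and DDIT3 in each contrast, was at 1.79, 1.72, 1.18 and 0.68. This lay above the IRE1 median in C4-2B MDVR cells and below it in CWR22Rv1 cells, a grouping made after the values were seen. A median over 2 genes is their mean, and the PERK/eIF2α median of 0.41 was 0.25, within 1.2-fold, after rescaling to the same sum outside the mitochondrial chromosome. At the level of downstream genes the order was different, with the ATF4 and CHOP targets above the XBP1 and ATF6 targets in each contrast.

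**Figure D5:**
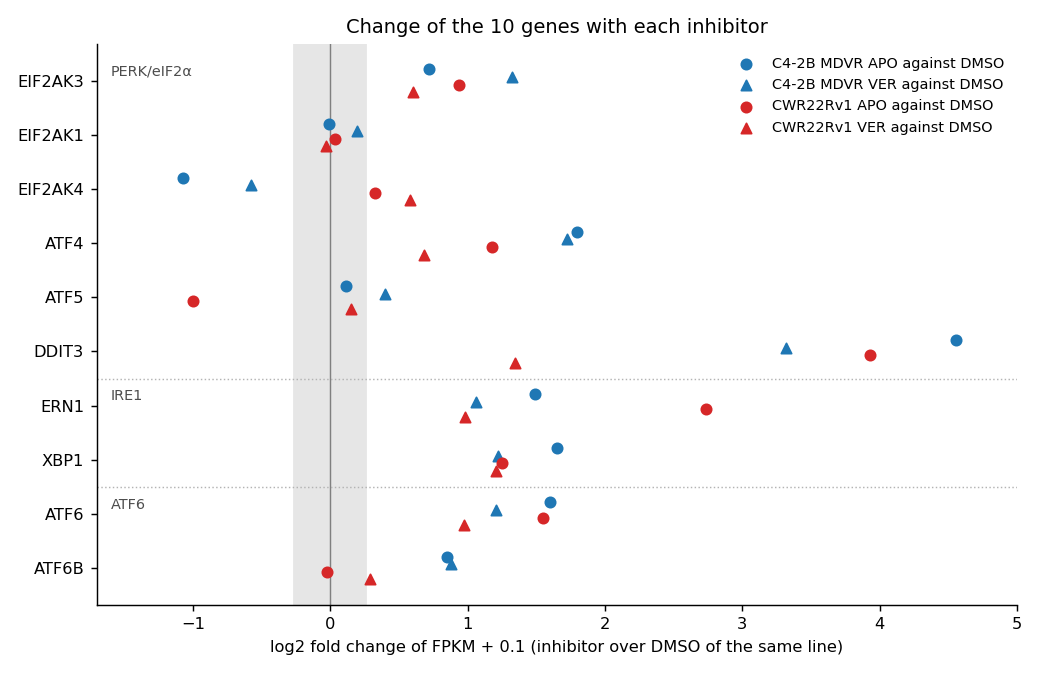
log2 fold change of FPKM + 0.1 of the 10 genes with APO (circles) and VER (triangles) against DMSO in C4-2B MDVR (blue) and CWR22Rv1 (red) cells, with the band within 1.2-fold in grey. DDIT3 lies farthest to the right in each contrast (1.34 to 4.55), and EIF2AK4 lies left of 0 in C4-2B MDVR and right of 0 in CWR22Rv1 cells.

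The inhibitors were given at the same dose and time, and VER was compared directly with APO in each line. In C4-2B MDVR cells 3 of the 10 genes were higher with VER and 4 lower, where 28.5% of all genes were higher and 32.5% lower. ATF5 (0.28), EIF2AK3 (0.60) and EIF2AK4 (0.49) were higher, and ATF6 (-0.39), XBP1 (-0.43), ERN1 (-0.43) and DDIT3 (-1.24) were lower. In CWR22Rv1 cells 2 were higher with VER and 5 lower, against 37.3% and 34.5% of all genes. ATF5 (1.15) and ATF6B (0.31) were higher, and ATF4 (-0.50), ATF6 (-0.57), ERN1 (-1.76), EIF2AK3 (-0.33) and DDIT3 (-2.59) were lower. DDIT3, the gene farthest apart, was thus at a lower level with VER in both lines, and XBP1 was nearly equal with both inhibitors in CWR22Rv1 cells (-0.05).

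With DMSO the lines differed in the level of 7 of the 10 genes, 3 higher and 4 lower in CWR22Rv1 than in C4-2B MDVR cells, where 43.2% of 20903 genes were higher and 39.2% lower. ATF6B (1.55 on the log2 scale), DDIT3 (1.41) and ATF5 (0.46) were higher in CWR22Rv1 cells. ERN1 (-1.94), EIF2AK3 (-0.53), XBP1 (-0.43) and ATF6 (-0.36) were lower, and ATF4 (0.09), EIF2AK1 (0.06) and EIF2AK4 (-0.21) were within 1.2-fold. These shares of the 10 genes are near those of all genes. Subtracting the C4-2B MDVR change from the CWR22Rv1 change gave the largest gaps for DDIT3 with VER (-1.97), EIF2AK4 with APO (1.40) and with VER (1.16), ERN1 with APO (1.25), ATF5 with APO (-1.11) and ATF4 with VER (-1.04). For ATF6 with APO (-0.05) and XBP1 with VER (-0.01) the lines hardly differed.

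The genes whose profile over the 6 libraries came closest to that of a factor were found by the root mean square difference of centred log2 values, searched over the 14241 genes that averaged 1 FPKM or more. For ATF4 these were ATP2B1-AS1 (0.118), WDR45 (0.120) and PSAT1 (0.163), an enzyme of serine synthesis that the target list holds. For DDIT3 they were SERPINB8 (0.255), ATF3 (0.290) and RAB39B (0.522), so no gene matched DDIT3 as closely as the first ones matched ATF4. For XBP1 they were SCARF1 (0.152), ATF6 (0.164) and CCDC174 (0.183), which sets the IRE1 factor and the ATF6 sensor side by side. For ATF6 they were C20orf194 (0.110), RBCK1 (0.115) and PRDX5 (0.115). The 6 libraries were normalized together and differ in depth, and likeness over 6 points is a description.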

How the data were processed

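RNA from 6 libraries, 1 per condition, was sequenced as paired-end reads of polyadenylated RNA. The authors deposited FPKM values per gene, and the submitters' processing notes name HISAT, Cufflinks, Cuffnorm and GRCh38. Versions, annotation release and strand setting are not given in the sources used here. The labels name a stranded KAPA kit and the paper's methods a TruSeq kit. For 3 libraries titled C4-2B MDVR, the name used here, the source label reads LNCaP-C4-2B, and the cell type label of all 6 says parental.

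Identifiers were matched to GENCODE 29 (57047 of 60658), which gave the coordinates. Differences of log2(FPKM + 0.1) were computed for genes above 0.1 FPKM in at least 1 library of a line, and the pseudocount understates the changes of low genes. The deposited FPKM carry no read totals, so counting error is unknown. The functions were tested on simulated data. Genes named from each list are the 2 with the highest and the 2 with the lowest mean change over the 4 contrasts among those with a mean of at least 1 FPKM, with a fixed set of regulators. The 10 genes and all lists were chosen with earlier results of these data known, and the study names ATF4 and ATF6, and displays other listed genes, as altered in the C4-2B MDVR libraries, so their direction is not independent evidence. Alternatives were other pseudocounts, filters, scalings and thresholds. Rescaling outside the mitochondrial chromosome, a restriction to protein-coding genes and the shortened ERSE were added after the data were seen. Python 3.11.15, pandas 2.3.3, numpy 2.4.6 and matplotlib 3.10.9 were used.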

Additional observations from a re-analysis of the deposited data

Results flagged for a closer look

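EIF2AK4 moved in opposite directions in the lines, lower with both inhibitors in C4-2B MDVR cells (-1.07 for APO and -0.58 for VER on the log2 scale) and higher with both in CWR22Rv1 cells (0.32 and 0.58). With 1 library per condition the difference between the lines was not tested, and the contrasts of a line share its DMSO library.

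The median of the 7 genes for eIF2B and eIF2 subunits was above 0 in C4-2B MDVR cells (0.0239 with APO and 0.0847 with VER) and below 0 in CWR22Rv1 cells (-0.207 and -0.00986). All 4 values lie within 1.2-fold, but the CWR22Rv1 APO value was -0.36, beyond 1.2-fold, after rescaling outside the mitochondrial chromosome. This difference between the lines was not tested either.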

How the results depend on the processing

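No paired analysis was possible because the labels give no replicate numbers and each comparison sets 1 library against 1 other. A fit over both lines that takes the difference between the lines as its error was not run. No library could be left out of a condition. No fold change or median that was beyond 1.2-fold changed sign under the alternatives. Of 360 fold changes of the 10 genes over the alternatives, 357 stayed on their side of 1.2-fold. This total includes the filters and the restriction to protein-coding genes, which cannot move these values. All 10 genes are protein-coding and measured at least 4.07 FPKM, so only the pseudocounts and rescalings could move them. The exceptions were ATF6B with VER in CWR22Rv1 cells (0.22 under both rescalings to an equal sum) and EIF2AK4 with APO in CWR22Rv1 cells (0.17 after rescaling outside the mitochondrial chromosome).

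The scaling could move all values of a contrast together. Rescaling to the same sum (TPM) put the median of genes above 1 FPKM at -0.12 (C4-2B MDVR APO), 0.10 (CWR22Rv1 APO) and -0.09 (CWR22Rv1 VER). Rescaling outside the mitochondrial chromosome put it at -0.14, -0.16 and -0.09. With TPM the medians of the kinase regulators were 0.16 (C4-2B MDVR APO) and 0.36 (CWR22Rv1 APO), that of the IRE1 partners 0.17, of the mRNAs cut by IRE1 -0.30 and of the bZIP relatives of ATF6 -0.29 (all C4-2B MDVR APO) and -0.25 (CWR22Rv1 APO), and 1 of the 10 genes was higher with VER than APO in CWR22Rv1 cells. Outside the mitochondrial chromosome, the values with APO in C4-2B MDVR cells were 0.25 for the PERK/eIF2α genes, 0.15 for the kinase regulators, 0.16 for the IRE1 partners, -0.31 for the mRNAs cut by IRE1 and -0.30 for the bZIP relatives, those with APO in CWR22Rv1 cells -0.36 for the eIF2B and eIF2 subunits and 0.24 for the XBP1 targets, and 1 gene was lower with VER than APO in C4-2B MDVR cells. A median ratio of 1 gave 0.29 for the IRE1 partners with VER in CWR22Rv1 cells.

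With a pseudocount of 1 the bZIP relatives were at -0.17 with APO in CWR22Rv1 cells, and also at -0.17 with no filter. No filter gave 0.25 (APO) and 0.19 (VER) for the IRE1 partners in C4-2B MDVR cells, since ERN2, listed at 0, enters. Genes above 1 FPKM gave 0.67 for the bZIP partners with VER in C4-2B MDVR cells. At 1.5-fold, 0 of the 10 genes were lower in C4-2B MDVR cells with VER (22.4% of all genes), 1 was higher and 1 lower with VER than APO there (15.4% and 17.7%), 1 higher and 2 lower in CWR22Rv1 cells (25.6% and 20.6%), and 1 lower in CWR22Rv1 than C4-2B MDVR with DMSO (29.2%). At 2-fold these were 0 (13.3%), 0 and 1 (8.68% and 10.5%), 1 and 2 (15.6% and 10.5%), and 1 (19.4%), and 2 genes were higher with VER in CWR22Rv1 cells (10.8%). Thresholds leave fold changes and medians as they are. Counting error is unknown, so no limit of detection is given.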
